A study of Homo sapiens with 4 samples.

Results

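N6-methyladenosine (m6A) is a methyl mark on adenosines of messenger RNA, and the proteins that bind it are called readers. The genes of 10 readers were taken by name from a deposited table of 26336 genes: YTHDF1, YTHDF2, YTHDF3, YTHDC1, YTHDC2, IGF2BP1, IGF2BP2, IGF2BP3, PRRC2A and FMR1. All 10 had a row and all 10 passed the filter on low values, IGF2BP1 at a level of only a few reads. The libraries came from MDA-MB-231, an established human line from a triple-negative breast cancer, with wild-type genotype in both groups. Cells were kept for 24 h with W23-1006, a compound known here by its code name that the series calls an inhibitor of the m6A demethylase ALKBH5, or with DMSO, the vehicle. Each group held 2 libraries of polyadenylated RNA; the concentration of the compound is not given in the sources used here. Nothing in the labels tells if replicate libraries are separate cultures; a p-value here sets a difference against the spread of 4 libraries, and that spread may be technical.

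The mark is set by a nuclear complex around METTL3 and METTL14 and removed by ALKBH5 and FTO. Readers decide what follows: the YTHDF proteins act in the cytoplasm on decay and translation, YTHDC1 acts in the nucleus on splicing and export, and YTHDC2 joins a YTH domain to an RNA helicase. The YTH domain holds the methylated base in a cage of aromatic residues, whereas the IGF2BP proteins bind through KH domains and are known for stabilising their messenger RNAs. FMR1 encodes FMRP, a KH domain protein that restrains translation and is lost in fragile X syndrome, and PRRC2A is a large proline-rich protein reported to bind methylated RNA.

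Depth ran from 15161460 to 16497283 gene-assigned reads a library, if the smallest value above 0 counts as 1 read. The values are normalised read counts, that is, counts the authors scaled with 1 factor per library. The mesenchymal markers VIM and AXL were high in all 4 libraries, at 21063 to 22495 and 13169 to 14565. Of the luminal genes ESR1 was at 1.99 to 9.64, EPCAM at 45.4 to 85.8, GATA3 at 175 to 197 and ERBB2 at 871 to 1052, so 3 of these 4 were not near 0. The endothelial gene PECAM1 was at 73.5 to 104, and PGR, CDH1, PTPRC and CD3E had no row among the deposited genes. The libraries differed in a trend with base composition that follows the groups. On the log2 scale, with each gene centred on its mean, the tenth of genes richest in GC minus the tenth poorest came to -0.14 and -0.31 in the W23-1006 libraries and to 0.22 and 0.23 in the DMSO libraries. Each reader is therefore given with the GC content of its longest transcript and with its fold change after that trend was removed from each library.

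Among the readers the GC content of the coding sequence ran from 42.2% (YTHDC2) to 61.7% (PRRC2A). These 2 values lie above those of 12.9% and 81.4% of tested genes with a coding transcript. The last 60 coding bases, stop codon included, are printed for PRRC2A and FMR1, whose fold changes lay at the lower and the upper end of the readers, and for the 3 IGF2BP paralogs, of which IGF2BP1 was nearly silent. They are read from GENCODE release 29 transcripts (GRCh38) from 5′ to 3′, with GGAC, a common core of m6A sites, in capitals.
PRRC2A: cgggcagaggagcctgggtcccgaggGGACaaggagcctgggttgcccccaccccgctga
FMR1: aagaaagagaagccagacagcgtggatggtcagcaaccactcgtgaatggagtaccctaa
IGF2BP1: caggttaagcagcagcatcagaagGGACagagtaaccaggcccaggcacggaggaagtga
IGF2BP2: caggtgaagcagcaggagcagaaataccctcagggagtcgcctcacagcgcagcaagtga
IGF2BP3: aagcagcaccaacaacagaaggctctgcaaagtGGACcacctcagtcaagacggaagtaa

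The PRRC2A end was 73.3% G or C, against 50% for FMR1. GGAC, searched on the sense strand since RNA is single-stranded, was present in this window in 3 of the 10 readers, IGF2BP1, IGF2BP3 and PRRC2A. The same window held it in 24.4% of the 14495 tested genes with a complete coding transcript. A match is a string of letters and not a mapped m6A site. Over whole coding sequences, YTHDF1 had 14 GGAC in 1680 bases (8.33 per kb), a density above that of 88.2% of tested genes. FMR1 had 6 in 1899 bases (3.16 per kb) and YTHDC2 had 13 in 4293 bases (3.03 per kb), below the median of 4.69 per kb. PRRC2A, with 31 in 6474 bases (4.79 per kb), lay close to that median. GGAC density followed the GC content of the coding sequence across genes (Spearman rho 0.57, a description over genes that are not independent replicates).

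PRRC2A was the 1 reader that passed the test, and it fell with the compound. Its normalised read count was 7144 and 6742 in W23-1006 cells, against 8173 and 7968 in DMSO cells. Both W23-1006 libraries were below both DMSO libraries, and the gap between the groups was wider than the spread within either. The means were 6943 ± 284 with W23-1006 and 8070 ± 145 with DMSO (SD, n = 2 each). The log2 fold change was -0.22 (SE 0.05, 95% confidence interval -0.33 to -0.11, limma adjusted p = 0.0453). In GRCh38 PRRC2A occupies 31620720 to 31637771 of chromosome 6, plus strand, and its longest transcript has a GC content of 61.7%. After the GC trend was removed the log2 fold change was 0.02 (SE 0.05, limma adjusted p = 0.951), since the trend at its GC content came to -0.24. Without any 1 of the 4 libraries the log2 fold change stayed between -0.26 and -0.18, but the call was lost (limma adjusted p from 0.367 to 0.595). With no filter on low values, a pseudocount of 0.1 or no mean-variance trend it stayed at -0.22 and the call was lost as well (limma adjusted p = 0.236, 0.108 and 0.585). Under each of these 7 settings 0 genes of the whole table passed (limma), while 1625 to 3568 had an unadjusted p below 0.05.

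Set against the background, 1 of 10 readers passed toward lower values, where 1.46% of all 22486 genes tested did (limma adjusted p under 0.05), or 3.07% of the 10602 genes with a mean of at least 100. Toward higher values 0 of 10 passed, where 0.694% of all genes did, or 1.46% of those with a mean of at least 100. At an unadjusted limma p under 0.05 there were 3 higher readers (FMR1, YTHDF3 and YTHDC1) and 1 lower reader (PRRC2A), or 4 of 10, where 16.7% of all genes reached that level. Low genes are part of that 16.7%. With a filter at a mean of 10, 3613 of 15003 genes reached that level. Of the readers, the authors' deposited table gives an adjusted p under 0.05 to PRRC2A (lower, 0.00439) and FMR1 (higher, 0.0394). Of its 26336 genes, low ones included, 1.36% passed lower and 1.06% higher. For the authors' calls no share was taken over genes with a mean of at least 100. After the GC correction 0 of 10 passed (limma), where 0.0934% of all genes did, and 0 of 10 reached an unadjusted p under 0.05, where 7.25% of all genes did. For 9 of the readers, IGF2BP1 left out because of its few reads, the median log2 fold change was 0.04, and 0.02 with the GC trend removed, and over all genes tested it was -0.01 without the correction. An exact permutation test of 2 libraries against 2 can go no lower than p = 0.333 (two-sided), so no reader has an exact test that could pass.

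**Figure D1:**
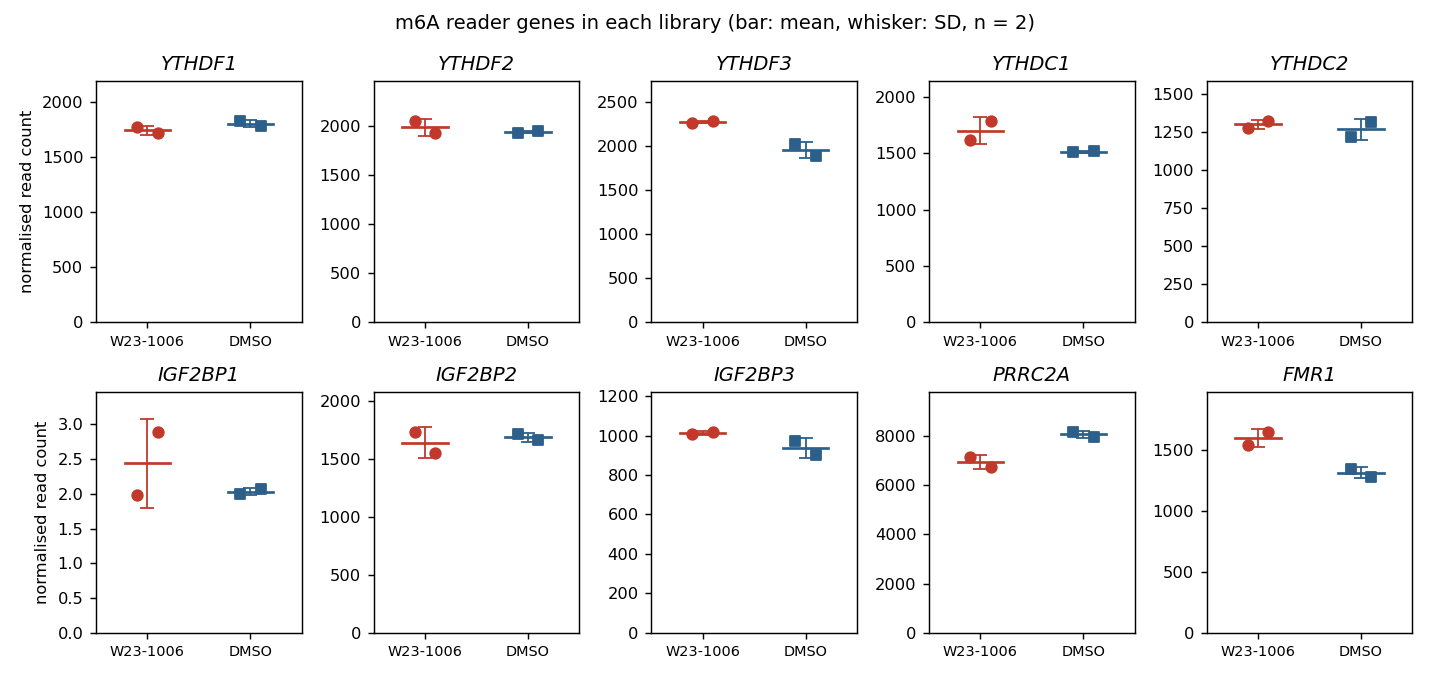
Normalised read count (y axis, from 0, scaled for each gene) of the 10 m6A reader genes in W23-1006 libraries (red circles) and DMSO libraries (blue squares), with the mean as a bar and the SD as a whisker (n = 2). PRRC2A is lower in both W23-1006 libraries, FMR1 and YTHDF3 are higher in both, and IGF2BP1 stays at 1.99 to 2.89.

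FMR1 had the largest fold change of the 9 readers and missed the threshold. Its normalised read count was 1545 and 1649 in W23-1006 cells, against 1347 and 1283 in DMSO cells. Both W23-1006 libraries were above both DMSO libraries, and the groups did not overlap. The means were 1597 ± 73.5 with W23-1006 and 1315 ± 45.7 with DMSO (SD, n = 2 each), for a log2 fold change of 0.28 (SE 0.07, 95% confidence interval 0.13 to 0.43, limma adjusted p = 0.0537). The gene occupies 147911951 to 147951125 of chromosome X (GRCh38, plus strand), and its longest transcript has a GC content of 35.7%. With the GC trend removed it stood at 0.12 (SE 0.07, limma adjusted p = 0.716). Settings that took it past the threshold included a pseudocount of 5, a filter at a mean of 10, equal library totals and trimmed-mean scaling (limma adjusted p = 0.036, 0.0169, 0.0433 and 0.0449). In all, FMR1 passed in 5 of 14 alternatives. It missed with no filter on low values, a pseudocount of 0.1 or no mean-variance trend (limma adjusted p = 0.236, 0.117 and 0.578).

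The autosomal paralogs of FMR1 encode RNA-binding proteins of the same family. FXR1 had 3106 and 3218 normalised reads with W23-1006, against 2966 and 2994 with DMSO (log2 fold change 0.09, SE 0.06, limma adjusted p = 0.501). FXR2 had 1218 and 1146 with W23-1006, against 1339 and 1331 with DMSO (log2 fold change -0.18, SE 0.07, limma adjusted p = 0.223). Neither passed. FXR2 has a transcript GC content of 59.2% and FXR1 one of 37.6%. After the GC correction the log2 fold changes were -0.06 for FXR1 and 0.01 for FXR2. Shares of the family sum were taken from values as deposited, without the GC correction. Per kb of exonic length, FMR1 made up 24.3% and 25.8% of the family sum in W23-1006 libraries, against 21.4% and 20.6% in DMSO libraries. FXR2 made up 39.5% and 36.9% with W23-1006, against 43.8% and 43.9% with DMSO. The sum of the 3 genes was 712 and 716 per kb with W23-1006, against 706 and 700 per kb with DMSO.

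The paralogs of PRRC2A encode other large proline-rich proteins, and neither passed. PRRC2B, with a transcript GC content of 56.6%, had 4930 and 4402 normalised reads with W23-1006, against 5051 and 5115 with DMSO (log2 fold change -0.13, SE 0.06, limma adjusted p = 0.315). PRRC2C, at a GC content of 45.3%, had 7330 and 6715 with W23-1006, against 7009 and 6500 with DMSO, and its groups overlapped (log2 fold change 0.06, SE 0.06, limma adjusted p = 0.691). With the GC trend removed the log2 fold change was 0.01 for both PRRC2B, whose direction turned, and PRRC2C. PRRC2A made up 46.1% and 47.2% of the family sum per kb in W23-1006 libraries, against 49.8% and 50.1% in DMSO libraries. This share was taken from values as deposited, without the GC correction.

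None of the 3 cytoplasmic YTHDF readers passed, and their changes were not tested against each other. YTHDF3, a cofactor of the other two in translation and decay, had 2257 and 2279 normalised reads with W23-1006, against 2016 and 1888 with DMSO. Its W23-1006 libraries lay above both DMSO libraries, at a log2 fold change of 0.22 (SE 0.06, 95% confidence interval 0.08 to 0.35) that missed the threshold (limma adjusted p = 0.0893). Settings that took it past the threshold included a filter at a mean of 10 (limma adjusted p = 0.0375). In all, YTHDF3 passed in 2 of 14 alternatives. It missed with no filter on low values, a pseudocount of 0.1 or no mean-variance trend (limma adjusted p = 0.244, 0.146 and 0.586). The gene, at 63168553 to 63212786 of chromosome 8 (GRCh38, plus strand), has a transcript GC content of 38.8%, and after the correction the log2 fold change was 0.08 (SE 0.06, limma adjusted p = 0.792).

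YTHDF1, known for promoting translation of its targets, had 1774 and 1716 normalised reads with W23-1006, against 1826 and 1782 with DMSO. The W23-1006 libraries were both lower, with the nearest libraries of the groups almost level (log2 fold change -0.05, SE 0.06, 95% confidence interval -0.19 to 0.09, limma adjusted p = 0.769). YTHDF2, which recruits the CCR4-NOT deadenylase to its targets, had 2044 and 1922 with W23-1006, against 1927 and 1942 with DMSO. Here the groups overlapped (log2 fold change 0.03, SE 0.06, 95% confidence interval -0.10 to 0.17, limma adjusted p = 0.842). With the GC trend removed YTHDF1 turned to 0.01 and YTHDF2 stood at 0.02. These intervals do not show that either gene was unaffected, and they cover only the spread of these libraries. In GRCh38 YTHDF1 occupies 63195429 to 63216234 of chromosome 20 (minus strand) and YTHDF2 28736621 to 28769775 of chromosome 1 (plus strand), and their longest transcripts have GC contents of 51.9% and 47.5%.

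Shares within the trio were taken per kb of exonic length, from values as deposited and without the GC correction. On that scale, YTHDF3 made up 25.6% and 26.6% of the YTHDF sum in W23-1006 libraries, against 23.7% and 22.7% in DMSO libraries. YTHDF1 made up 37.5% in both W23-1006 libraries, against 40.1% and 40.0% in DMSO libraries, and the shares of YTHDF2 overlapped. YTHDF1 and YTHDF2 stood close in level, at 529 ± 12.2 and 514 ± 22.4 per kb with W23-1006 and 546 ± 9.32 and 501 ± 2.71 per kb with DMSO (SD, n = 2 each).

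**Figure D2:**
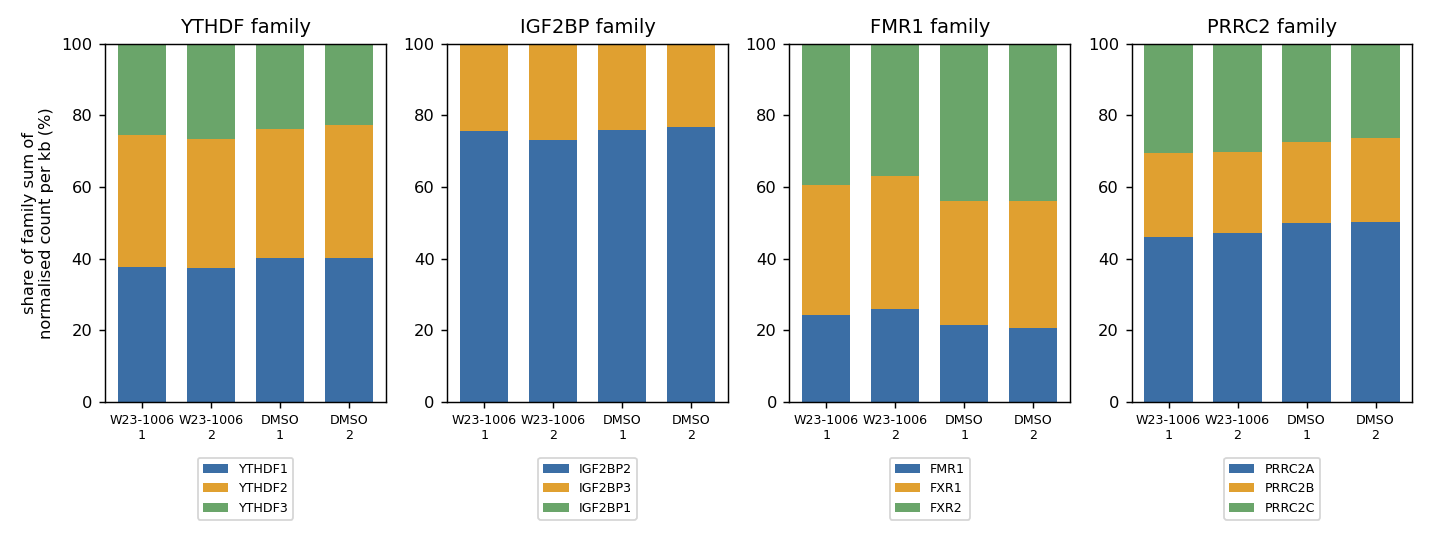
Share (%) of each paralog in its family's summed normalised read count per kb of exonic length, for the YTHDF, IGF2BP, FMR1 and PRRC2 families (panels) in the 2 W23-1006 and 2 DMSO libraries (bars). Shares are from values as deposited, without the GC correction. YTHDF3 and FMR1 take a larger share in both W23-1006 libraries, and IGF2BP1 is too low to be seen.

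The YTHDC readers did not pass. YTHDC1, the nuclear reader, had 1617 and 1786 normalised reads with W23-1006, against 1508 and 1520 with DMSO. The groups did not overlap, though the W23-1006 libraries lay far apart (SD 120, against 8.67 with DMSO, n = 2 each). The log2 fold change was 0.17 (SE 0.07, 95% confidence interval 0.02 to 0.32, limma adjusted p = 0.244), and 0.05 after the GC correction, at a transcript GC content of 40.3%. YTHDC2, best known for its role in germ cells entering meiosis, had 1278 and 1319 with W23-1006, against 1216 and 1315 with DMSO, and the groups overlapped. Its log2 fold change was 0.04 (SE 0.07, 95% confidence interval -0.12 to 0.19, limma adjusted p = 0.848). At 33.4% its transcript had the lowest GC content of the readers, and the correction turned its fold change to -0.14 (SE 0.07, 95% confidence interval -0.29 to 0.01, limma adjusted p = 0.712). In GRCh38 YTHDC1 occupies 68310387 to 68350089 of chromosome 4 (minus strand) and YTHDC2 113513683 to 113595285 of chromosome 5 (plus strand).

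**Figure D3:**
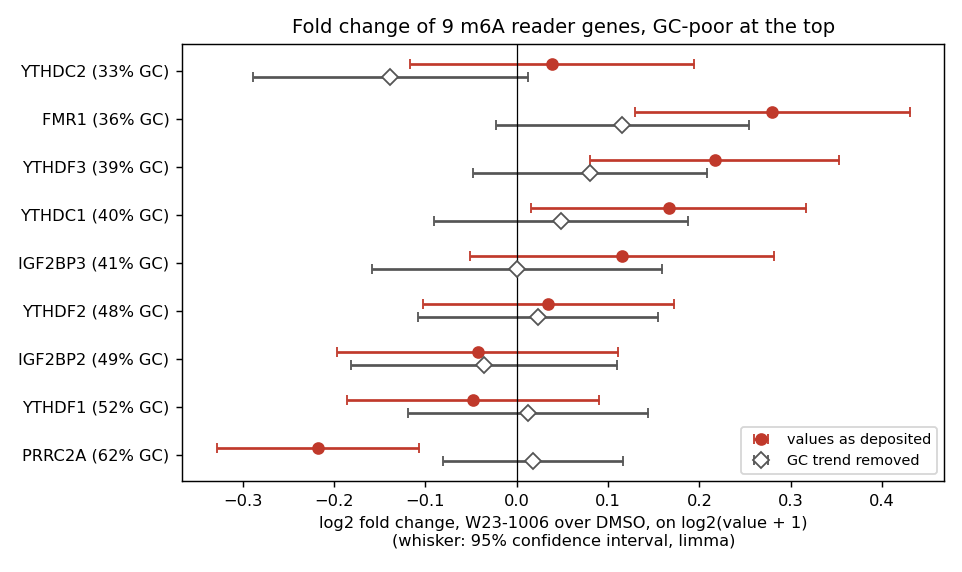
Log2 fold change of W23-1006 over DMSO with its 95% confidence interval (x axis) for 9 readers ordered by transcript GC content, from values as deposited (red circles) and after removal of the GC trend (open diamonds). PRRC2A is at -0.22 as deposited and 0.02 corrected, FMR1 at 0.28 and 0.12, and after the correction all 9 intervals include 0.

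The IGF2BP family was carried by IGF2BP2 and IGF2BP3. IGF2BP1, an oncofetal protein usually silent in adult tissue, was listed at 1.99 and 2.89 with W23-1006, against 1.99 and 2.06 with DMSO. Both group means lie under a floor of 3 counts per library, so no fold is given. IGF2BP2 had 1734 and 1548 normalised reads with W23-1006, against 1714 and 1661 with DMSO, and the groups overlapped (log2 fold change -0.04, SE 0.07, 95% confidence interval -0.20 to 0.11, limma adjusted p = 0.824). After the GC correction its log2 fold change was again -0.04. IGF2BP3, the other oncofetal member, had 1006 and 1018 with W23-1006, against 971 and 899 with DMSO. Its W23-1006 libraries lay above both DMSO libraries, at a log2 fold change of 0.12 (SE 0.08, 95% confidence interval -0.05 to 0.28, limma adjusted p = 0.501) that went to 0.00 (95% confidence interval -0.16 to 0.16) with the GC trend removed.

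The IGF2BP shares are again from values as deposited, without the GC correction. Per kb, IGF2BP2 made up 75.6% and 73.2% of the family sum in W23-1006 libraries, against 76.0% and 76.8% in DMSO libraries. IGF2BP3 made up nearly all of the rest, at 24.4% and 26.8% with W23-1006, against 23.9% and 23.1% with DMSO. In GRCh38 IGF2BP2 occupies 185643739 to 185825056 of chromosome 3 (minus strand), IGF2BP3 23310209 to 23470467 of chromosome 7 (minus strand) and IGF2BP1 48997412 to 49055650 of chromosome 17 (plus strand).

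Levels and shares per kb rest on the deposited exonic length of each gene, and which of its transcripts were expressed was not tested. Ordered by level per kb, PRRC2A stood first, at 762 ± 31.2 with W23-1006 and 885 ± 15.9 with DMSO (SD, n = 2 each). YTHDF1 and YTHDF2 followed, then YTHDF3 and IGF2BP2, at 368 and 347 per kb with W23-1006 and 317 and 356 per kb with DMSO. YTHDC1 (242 with W23-1006 and 215 with DMSO) and FMR1 (179 with W23-1006 and 147 with DMSO) came next. YTHDC2 was at 120 per kb with W23-1006 and 117 with DMSO, and IGF2BP3 at 119 with W23-1006 and 110 with DMSO. IGF2BP1 came last, at 0.268 with W23-1006 and 0.223 with DMSO. The ranges over the 4 libraries overlapped for YTHDF1 and YTHDF2, for YTHDF3 and IGF2BP2 and for YTHDC2 and IGF2BP3, and for no other neighbours in this order. The share of PRRC2A was likewise taken without the GC correction. PRRC2A made up 24.3% and 23.6% of the summed level of all 10 readers with W23-1006, against 27.8% and 27.6% with DMSO. That sum was 3223 and 3135 per kb with W23-1006, against 3230 and 3162 per kb with DMSO, and the groups overlapped. In bulk RNA, fewer cells with a transcript and less of it per cell cannot be told apart.

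In 6 of the 10 readers the groups did not overlap (4 higher and 2 lower). Of all genes tested 47.1% were apart, 22.1% higher and 25.0% lower, and of the genes with a mean of at least 100 it was 60.4%. The fold changes of the 9 readers followed transcript GC content (Spearman rho -0.83, Pearson r -0.85, n = 9 genes measured in the same 4 libraries, given as a description). Over the 12582 better-expressed genes the Spearman rho was -0.66. The part of each fold change that lay on the GC trend ran from -0.24 for PRRC2A to 0.18 for YTHDC2. What was left ran from -0.14 (YTHDC2) to 0.12 (FMR1). The median absolute log2 fold change of the genes with a mean of at least 100 was 0.13 before the correction and 0.08 after it. Whether the compound or the making of the libraries set the GC trend cannot be told apart with these libraries.

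**Figure D4:**
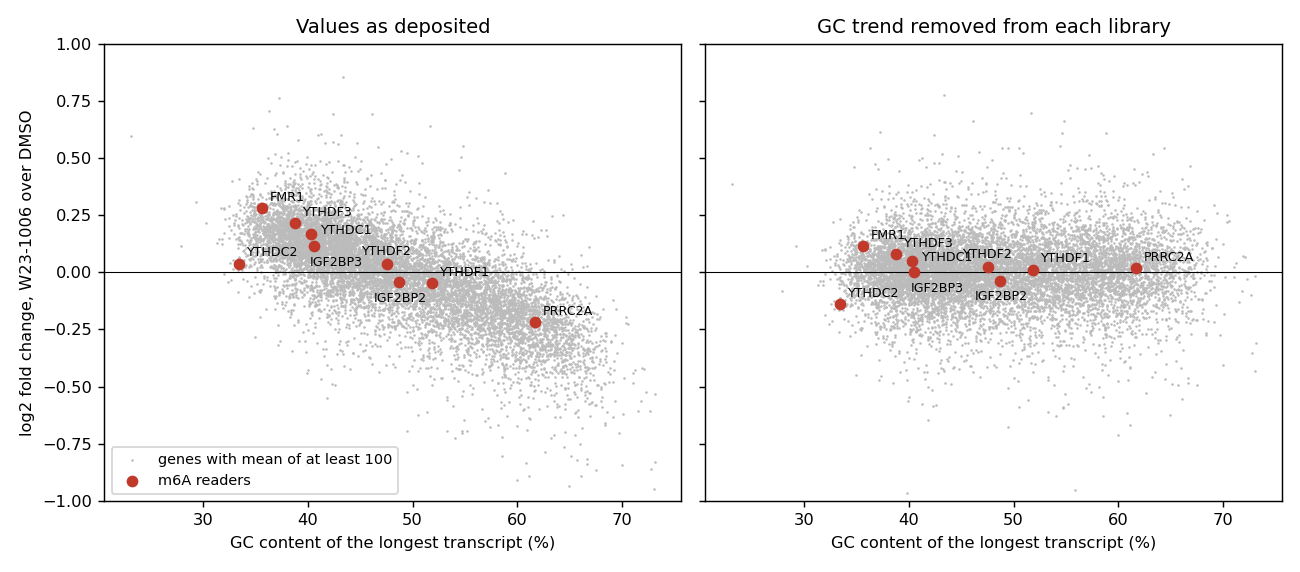
Log2 fold change of W23-1006 over DMSO (y axis) against the GC content of the longest transcript in percent (x axis) for genes with a mean of at least 100 (grey) and 9 m6A readers (red), from values as deposited (left) and with the GC trend removed from each library (right). The readers lie along the slope at the left and between -0.14 and 0.12 at the right; 3 genes at the left and 2 at the right lie outside the axis.

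The coding sequences of the paralogs shared only short runs of identical bases, and untranslated regions were not compared. The longest run of identical bases shared by the coding sequences of any pair of readers of a family was 22, between IGF2BP1 and IGF2BP2, and it was 20 for YTHDF1 and YTHDF2 and 18 for FMR1 and FXR2. The pseudogene YTHDF2P1 shares a run of 149 bases with YTHDF2 and was at most 1.93 in any library. The strand setting of the counting is not given, so overlapping genes are uncertain. IGF2BP2-AS1, antisense to IGF2BP2, was at 25.8 and 18.3 with W23-1006, against 17.9 and 29.9 with DMSO. MALSU1, on the opposite strand with 1521 bases in common with IGF2BP3, was at 296 and 304 with W23-1006, against 318 and 348 with DMSO. The intronic FMR1-IT1 reached 5.16 at most, and the 2 pseudogenes inside IGF2BP1 and IGF2BP3 (AC091133.4 and AC021876.1) 2.89 and 1.99.

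The genes that set and remove the mark did not pass either. ALKBH5, the labelled target, had 1281 and 1242 normalised reads with W23-1006, against 1434 and 1443 with DMSO (log2 fold change -0.19, SE 0.07, limma adjusted p = 0.167, and -0.08 after the GC correction). An inhibitor acts on the protein, so this level does not check the labels. FTO had 730 and 682 with W23-1006, against 615 and 643 with DMSO (log2 fold change 0.17, SE 0.09, limma adjusted p = 0.364, and 0.14 after the GC correction). The list of 13 writer genes also held genes outside the complex around METTL3 and METTL14, among them METTL5, TRMT112, ZCCHC4 and PCIF1. In this list 0 passed in either direction (limma), with a median log2 fold change of 0.07 and a range of -0.29 (PCIF1) to 0.22. The smallest p belonged to VIRMA, the scaffold of the writer complex, with 2646 and 2581 with W23-1006, against 2262 and 2218 with DMSO (log2 fold change 0.22, SE 0.06, limma adjusted p = 0.0653, and 0.11 after the GC correction).

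Among genes linked to what the readers do, 2 passed, both toward higher values, the direction in which 0.694% of all genes and 1.46% of those with a mean of at least 100 passed. SYNCRIP, an RNA-binding partner of IGF2BP1 in messenger RNA particles, rose to 6158 and 6374 with W23-1006, against 5419 and 5107 with DMSO (log2 fold change 0.25, SE 0.05, limma adjusted p = 0.0323). EIF3E, a subunit of the translation initiation factor that binds m6A readers and methylated RNA, rose to 7605 and 7868 with W23-1006, against 6846 and 6364 with DMSO (log2 fold change 0.23, SE 0.05, limma adjusted p = 0.0441). For each, the 2 W23-1006 libraries lay above the 2 DMSO libraries, as in 22.1% of all genes tested. Both genes were named for passing on these same libraries, so this adds no support. The transcript GC contents of SYNCRIP and EIF3E were 36.3% and 37.9%. With the GC trend removed their fold changes were 0.09 and 0.08 and neither passed (limma adjusted p = 0.712 and 0.725).

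SYNCRIP was 1 of 16 measured IGF2BP partners and client messenger RNAs that passed, with 0 lower and a list median of 0.10. MATR3, the highest of that list at 0.31 (SE 0.59), was low in reads. It had 14.9 and 7.71 with W23-1006, against 9.97 and 7.22 with DMSO. ACTB, the classic IGF2BP1 client that encodes beta-actin, missed the threshold at -0.19 (SE 0.05, limma adjusted p = 0.055), and stood at -0.07 after the GC correction. EIF3E was 1 of 13 translation partners that passed, with 0 lower and a median of 0.00. The list of 20 YTHDF decay partners had 0 calls in either direction (limma) and a median of 0.10. In it the decapping activator DDX6 stood at 0.23 (SE 0.06, limma adjusted p = 0.065) and the decapping enzyme DCP2 at 0.24 (limma adjusted p = 0.0874), or 0.11 and 0.09 after the GC correction. Also without a call were the 12 YTHDC partners in splicing and export (median 0.02), the 17 other m6A-linked RNA-binding proteins (median 0.06) and 3 YTHDF client messenger RNAs (median 0.00). In these lists ALYREF, an export adaptor, stood at -0.21 (SE 0.07, limma adjusted p = 0.114), and G3BP2, a stress granule protein, at 0.21 (SE 0.06, limma adjusted p = 0.075), or -0.06 and 0.11 after the GC correction. Among the clients, EIF3C stood at 0.16 (SE 0.26, limma adjusted p = 0.807; 0.16 also after the GC correction), and its reads may be shared with a near-identical copy. After the GC correction 0 genes passed in any of these lists.

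**Figure D5:**
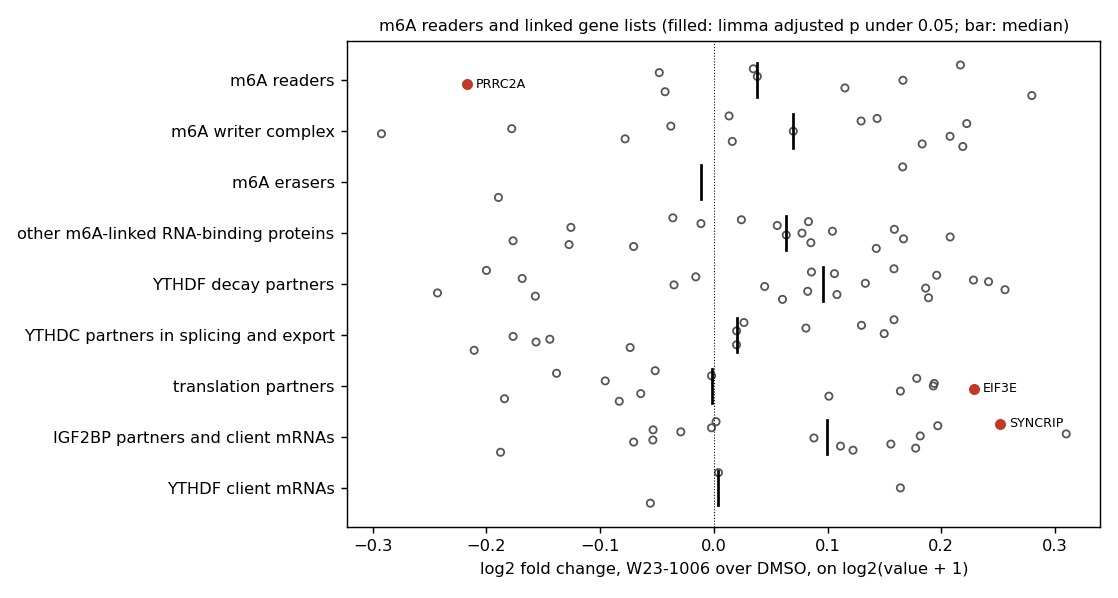
Log2 fold change of W23-1006 over DMSO (x axis) for 9 m6A readers and 8 linked gene lists (rows), with genes past a limma adjusted p of 0.05 filled and named and list medians as black bars. PRRC2A is the filled gene at the lower end (-0.22), and EIF3E (0.23) and SYNCRIP (0.25) are those at the upper end.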

How the data were processed

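The submitters' processing notes name CASAVA and fastp without versions, DESeq2 1.20.0, HISAT2 2.0.5 and featureCounts 1.5.0-p3, with build GRCh38. Their roles and the strand setting are not given there. Per the file headers and values, the authors deposited a signal per library, read counts divided by 1 factor: 100% of values were whole multiples, within 0.001, of the lowest nonzero value of that column. Columns named treatment and control were taken as W23-1006 and DMSO. The authors' deposited table gives a log2 fold change, a p-value and an adjusted p-value per gene, quoted only where named.

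Genes with a mean of at least 1 (22486) were fitted with limma 3.58.1 (R 4.3.3) on log2(value + 1), with treatment as the only term and a mean-variance trend, two-sided, with Benjamini-Hochberg adjustment at 0.05; fold changes of low genes are understated on that scale. As the values are scaled and not counts, no count model was fitted. The GC trend was a loess curve per library (span 0.3) over 12582 genes with a mean log2 of at least 5, using GENCODE release 29 transcripts; all 10 readers had the same start and end there as in the table. The readers, lists and alternatives were chosen with earlier results of these data known. By the rule for named genes, the text gives every reader and its paralogs, ALKBH5, FTO and overlapping genes. Of each list it gives genes past the threshold or, where none passed, the 1 or 2 with the smallest p. From the lists, ACTB, MATR3 and PCIF1 were also given, outside this rule. Chi-square per gene between libraries of a group was 4.08 with W23-1006 and 2.82 with DMSO, above the level of counting error, so no libraries were merged.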

Additional observations from a re-analysis of the deposited data

How the results depend on the processing

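The readers called (0 higher and 1 lower) moved with the settings as follows. The lower call, PRRC2A, was lost (0 lower) with its fold change removed by the GC content correction (0.018). It was lost with its log2 fold change kept (-0.22) with no low-value filter, no mean-variance trend or a pseudocount of 0.1, and without any 1 library (-0.26 to -0.18). Higher calls came to 1 (FMR1) with equal totals, trimmed-mean scaling or a pseudocount of 5 and to 2 (FMR1 and YTHDF3) with a filter at a mean of 10. Over all genes, 156 higher and 328 lower became 238 and 588 with equal totals, 511 and 754 with a filter at 10 and 14 and 7 with the GC correction. They became 0 and 0 with no filter, no trend or a pseudocount of 0.1 (limma; 3568, 1866 and 3515 genes at an unadjusted p under 0.05), and 0 and 0 without any 1 library (1625 to 3038). Trimmed-mean scaling gave 499 lower and a pseudocount of 5 gave 281 higher.

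With the GC correction PRRC2A, YTHDC2 (-0.14) and YTHDF1 (0.013) reversed their direction. Without 1 library the log2 fold change ran from -0.12 to 0.039 for IGF2BP2 (positive without W23-1006 replicate 2), from -0.018 to 0.095 for YTHDC2 (negative without DMSO replicate 1) and from -0.0097 to 0.079 for YTHDF2 (negative without W23-1006 replicate 1). FMR1, YTHDF3, YTHDC1 and IGF2BP3 were positive in all 14 alternatives, though IGF2BP3 came to 0.00049 with the GC correction. Settings of the filter, the mean-variance trend and the replicate block leave a fold change as it is. Its sign could not change there, so the count of 14 overstates the agreement. Without 1 library IGF2BP3 ran from 0.060 (without DMSO replicate 2) to 0.17, YTHDC1 from 0.095 (without W23-1006 replicate 2) to 0.24, YTHDF3 from 0.17 to 0.26, FMR1 from 0.23 to 0.33 and YTHDF1 from -0.072 to -0.024. The cause of these changes was not tested. Same-numbered libraries hardly deviated together (correlation 0.04), so the numbers were not taken as pairs; a replicate block gave 730 higher and 1001 lower genes, and 2 higher readers (FMR1 and YTHDF3, limma adjusted p = 0.00388 and 0.018) with PRRC2A lower. IGF2BP1, at 2 to 3 reads, was left out of the fold changes. The precision is limited by 2 libraries a group, and intervals cover only their spread.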
